A study of Mus musculus with 18 samples.

Results

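The genes described here encode 33 nuclear subunits of the mitochondrial respiratory chain and ATP synthase: 4 of complex II (succinate dehydrogenase), 9 of complex III (the cytochrome bc1 complex), cytochrome c, 9 of complex IV (cytochrome c oxidase), the 3 genes of the ATP synthase c subunit and 7 subunits of its stalk and membrane part. They were chosen by name from these complexes, with earlier results of these data known. Members of the COX7A family and of the F1 head of ATP synthase were left out of the choice. All 33 symbols matched exactly 1 gene of the 10597 listed in the 3 deposited tables. The samples are the left ventricles of 9 male C57BL/6 mice of 20 weeks, 4 of them wild type and 5 with a knockout of mORF4/NBDY, a small protein described as a partner of mRNA decapping factors. No mouse was treated, and the labels do not say how the knockout allele was made. From each numbered heart there are 2 libraries, one of poly-A RNA and one of ribosome footprints, the short mRNA fragments that a translating ribosome protects. Wild-type hearts carry the numbers 1 to 4 and knockout hearts 6 to 10.

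Electrons from succinate enter the chain at complex II, pass through ubiquinone to complex III, and are carried by cytochrome c to complex IV, which reduces oxygen to water. Complexes III and IV pump protons across the inner mitochondrial membrane, and ATP synthase lets them flow back through a ring of c subunits whose rotation drives ATP synthesis in the F1 head. Heart muscle is packed with mitochondria and draws most of its ATP from this route. Apart from complex II, these complexes combine subunits made in the cytosol, such as those described here, with a few encoded by mitochondrial DNA. None of the 13 mitochondrially encoded subunit genes is among the genes analysed here.

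Summed over the listed genes, wild-type RNA libraries had between 11.2 and 12.4 M (mega) reads and knockout RNA libraries between 15.8 and 20.2 M reads, so that RNA depth and genotype cannot be told apart. For footprints these ranges were 6.67 to 36.7 M for wild type and 22.9 to 40.8 M for knockout, the shallowest being wild-type heart 2. All signals below are reads divided by the authors' size factor of the library. The target gene, Nbdy (chromosome X, 153723477 to 153741302, GRCm38), had RNA signals of 116, 114, 113 and 100.1 in wild-type hearts 1 to 4 and 61.8, 75.5, 66.7, 73.7 and 90.0 in knockout hearts 6 to 10. Its footprint signals were 107, 355, 151 and 119 in wild-type hearts 1 to 4 and 13.8, 16.3, 11.3, 10.9 and 19.0 in knockout hearts 6 to 10. All knockout values lay below all wild-type values in both. All 9 cardiomyocyte markers were among the listed genes. In knockout RNA 1 of them was higher and 5 were lower, where 24.3% and 25.1% of all 10580 genes tested were. Their summed RNA signal was 1759681 to 2053551 in wild type and 1569321 to 1779108 in knockout, which overlapped only at the edge. The summed RNA signal of 5 skeletal muscle markers was 51806 to 94006 in wild type and 28649 to 44515 in knockout, that of 7 endothelial markers 18039 to 20713 and 14289.7 to 16339, and that of 2 lymphocyte markers 277 to 376 and 149 to 256. The genotypes did not overlap in these 3 sums. They overlapped in those of fibroblast, smooth muscle and pericyte, macrophage, erythrocyte and adipocyte markers, and in the footprint sums of all 9 marker lists. No marker among the listed genes was at 0 in all libraries, and 1 skeletal muscle marker (Tnnt3) and 3 lymphocyte markers (Ptprc, Cd3e and Cd79a) and 3 adipocyte markers (Adipoq, Plin1 and Ucp1) are not among the listed genes.

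RNA of most of these genes differed between genotypes, more often upward than downward. Of the 33, 22 rose in knockout hearts, or 66.7%, against 24.3% of all 10580 genes tested. Another 6 fell, or 18.2%, against 25.1% of all genes, and 5 did not pass the test. Together 28 of 33 passed (84.8%), where 49.4% of all genes did. The test was limma's moderated test on log2(signal + 1), with Benjamini-Hochberg adjustment over all genes tested and a threshold of 0.05. The median log2 fold change, knockout over wild type, was 0.28 over the 33 genes and 0.01 over all genes tested. In 27 of 33 genes (81.8%) the RNA signals of the genotypes did not overlap, compared with 40.5% of all genes. Their reads made up 2.33% to 2.50% of each wild-type RNA library and 2.57% to 2.83% of each knockout RNA library, as shares of reads over the listed genes. On the normalized signal used in the tests, their summed RNA was 381234 to 388517 in wild type and 361730 to 409851 in knockout. In this sum the genotypes overlapped. In bulk tissue, fewer cells of a type and less RNA per cell cannot be told apart. The part that RNA depth and the marker genes above play in these differences was not tested. The highest knockout RNA signal was in heart 9 for 21 genes and in heart 8 for 12. Without heart 8, or without heart 9, 21 genes rose and 6 fell.

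**Figure D1:**
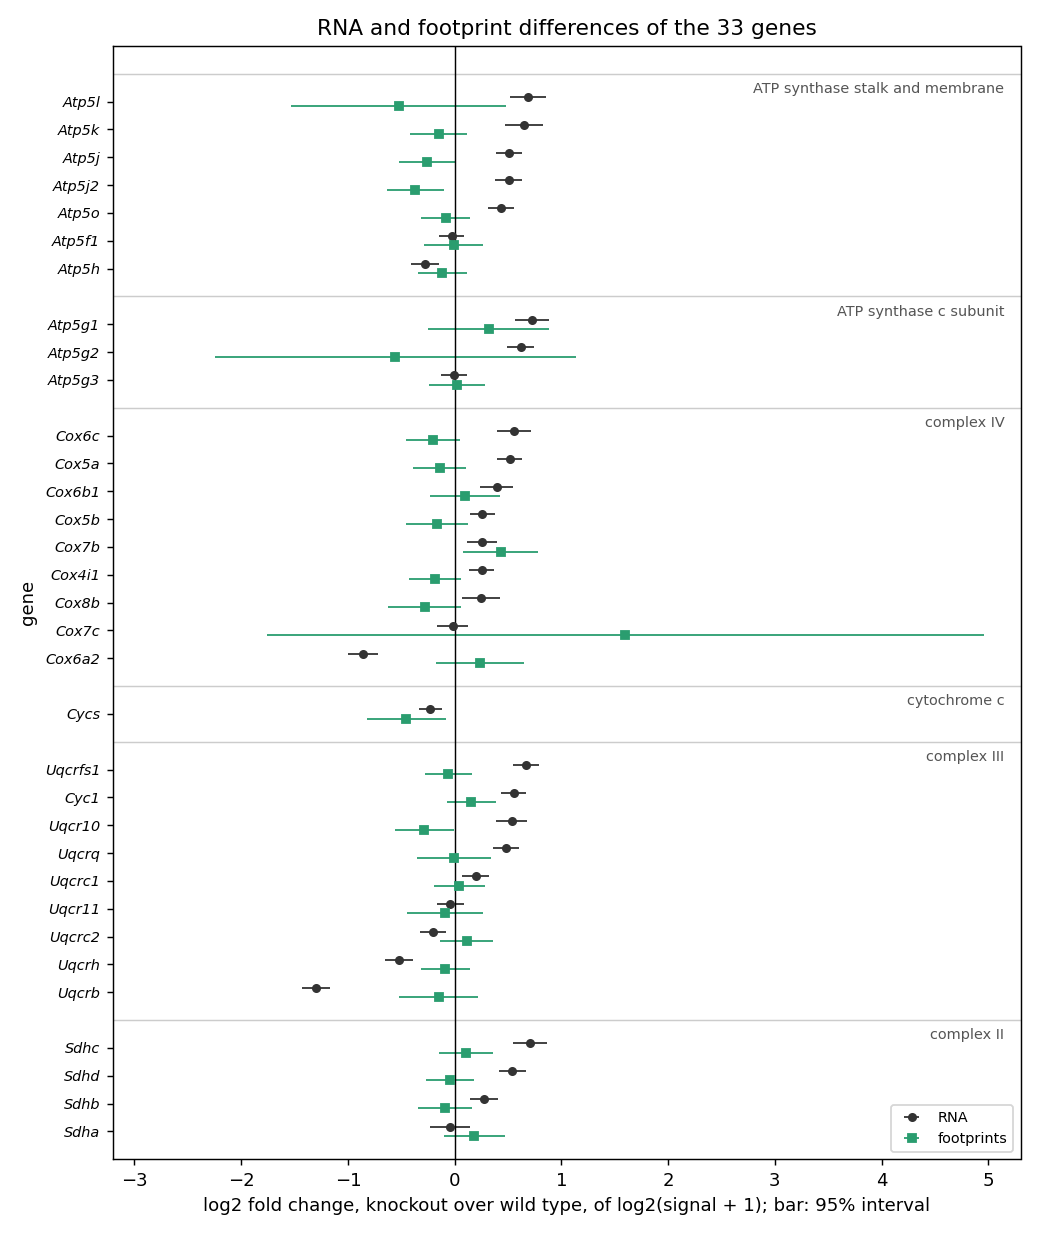
Log2 fold change (knockout over wild type, on log2(signal + 1)) of RNA (circles) and footprints (squares) for each of the 33 genes, grouped by complex, with 95% intervals from limma. RNA points lie from -1.29 (Uqcrb) to 0.72 (Atp5g1), most of them to the right of 0, while most footprint intervals span 0 and those of Cox7c, Atp5g2 and Atp5l are widest.

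Complex II lies in the inner membrane as 2 catalytic and 2 anchor subunits. Sdhc, a membrane anchor (chromosome 1, 171129157 to 171150640), had the largest change of the 4. Its RNA signals were 1683, 1574, 1742 and 1738 in wild-type hearts 1 to 4 and 2629, 2687, 2963, 3123 and 2398 in knockout hearts 6 to 10. Every knockout heart lay above every wild-type heart, and the log2 fold change was 0.71 ± 0.07 (SE; adjusted p = 1.54e-05, limma). Sdhd, the other anchor, rose by 0.54 and Sdhb, the iron-sulfur subunit, by 0.28 on the log2 scale. Sdha, the flavoprotein that oxidises succinate, was at -0.04 (adjusted p = 0.708, limma) and did not pass, with a 95% interval of -0.23 to 0.15.

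Complex III moved both ways, with 5 subunits higher, 3 lower and 1 that did not pass. Uqcrb, a small subunit near the ubiquinone binding site (chromosome 13, 66900576 to 66905350), gave the largest fall of the 33 genes. Its RNA signals were 18755, 21431, 18898 and 21347 in wild-type hearts 1 to 4 and 7895, 7991, 8760.3, 8499 and 7789 in knockout hearts 6 to 10. The knockout hearts lay far below the wild-type hearts, and their mean was 40.7% of wild type. This is a log2 fold change of -1.29 ± 0.06 (SE; adjusted p = 1.04e-07, limma). Uqcrh, the acidic hinge protein that helps cytochrome c1 to bind cytochrome c (chromosome 4, 116066965 to 116075070), fell as well. Its RNA signals were 11677, 11816, 10796 and 11654 in wild-type hearts 1 to 4 and 7616, 7601, 8838, 8498 and 7596 in knockout hearts 6 to 10. The genotypes did not overlap, with means of 11486 ± 465 (SD, n = 4) and 8029.9 ± 595 (SD, n = 5) and a log2 fold change of -0.52 ± 0.06 (SE; adjusted p = 2.98e-05, limma).

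The rises in complex III included both subunits that carry electrons on redox cofactors outside cytochrome b. Uqcrfs1, the Rieske iron-sulfur protein (chromosome 13, 30540312 to 30545316), had RNA signals of 6619, 6053, 6379 and 6393 in wild-type hearts 1 to 4 and 9829, 9511, 10848, 10786 and 9545 in knockout hearts 6 to 10. The lowest knockout heart exceeded the highest wild-type heart, and the log2 fold change was 0.67 ± 0.06 (SE; adjusted p = 3.29e-06, limma). Cyc1, cytochrome c1, rose by 0.55, and the small subunits Uqcr10 and Uqcrq by 0.53 and 0.48. The core proteins differed in direction, since Uqcrc1 rose by 0.20 (0.31 with quantile normalization) and Uqcrc2 was lower, at -0.20. With quantile normalization Uqcrc2 no longer passed (log2 fold change -0.13, limma adjusted p = 0.0544). Uqcr11, the smallest subunit, was at -0.04 (adjusted p = 0.591, limma) and did not pass.

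Cytochrome c, the soluble carrier between complexes III and IV, is encoded by Cycs (chromosome 6, 50562563 to 50566569). Its RNA signals were 10489.9, 10782, 10745 and 10860.1 in wild-type hearts 1 to 4 and 9068, 8769, 10157, 8947 and 8933 in knockout hearts 6 to 10. All knockout hearts were lower, with heart 8 nearest to wild type, and the log2 fold change was -0.23 ± 0.05 (SE; adjusted p = 0.00325, limma). With quantile normalization it was -0.12 (limma adjusted p = 0.0473).

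Complex IV had 7 subunits higher, 1 lower and 1 that did not pass. Cox6a2, the isoform of subunit VIa found in heart and skeletal muscle (chromosome 7, 128205435 to 128206366), was the member that fell. Its RNA signals were 73425, 70042, 66616 and 69494 in wild-type hearts 1 to 4 and 36075, 36536, 38248, 43026 and 39525 in knockout hearts 6 to 10. The genotypes were far apart, with a knockout mean of 55.3% of wild type and a log2 fold change of -0.86 ± 0.06 (SE; adjusted p = 1.46e-06, limma). The skeletal muscle marker sum moved the same way, and its part in this fall was not tested. Cox8b, the muscle isoform of subunit VIII, was higher by 0.25 (adjusted p = 0.0261, limma). It no longer passed without heart 3, 4, 8 or 9, where limma's adjusted p was 0.0697, 0.0778, 0.0508 and 0.0594. Of the subunits without a muscle form, Cox6c and Cox5a rose most, by 0.56 and 0.51. Cox6b1 followed at 0.39, and Cox5b, Cox7b and Cox4i1, the last a regulatory subunit, stood at 0.26, 0.26 and 0.25. Cox7c was at -0.02 (adjusted p = 0.855, limma) and did not pass.

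The c subunit of the ATP synthase ring is encoded by 3 genes whose products are known to be the same mature protein behind different import sequences. RNA of 2 of them rose, and that of the third did not pass. Atp5g1 (chromosome 11, 96072793 to 96075694) had RNA signals of 12249, 10418, 10183 and 9180.0 in wild-type hearts 1 to 4 and 17174, 16389, 17260.0, 17788 and 17713 in knockout hearts 6 to 10. Knockout hearts were all higher, by 0.72 ± 0.07 (SE; adjusted p = 1.13e-05, limma), the largest rise of the 33 genes. Atp5g2 (chromosome 15, 102662868 to 102671047) had RNA signals of 2540.3, 2243, 2485 and 2363 in wild-type hearts 1 to 4 and 3557, 3499, 3892, 3960.3 and 3585 in knockout hearts 6 to 10, again without overlap, and a log2 fold change of 0.62 ± 0.06 (SE; adjusted p = 6.06e-06, limma). Atp5g3 (chromosome 2, 73908447 to 73912464) had RNA signals of 17178, 17112, 17215 and 16448 in wild-type hearts 1 to 4 and 15958, 15602, 17887, 18349 and 17036 in knockout hearts 6 to 10. Here the genotypes overlapped, and the log2 fold change of -0.0045 (adjusted p = 0.955, limma) had a 95% interval of -0.13 to 0.12, which excludes the rises of the other two. The difference between the genes was not tested as such.

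The stalk and membrane subunits hold the F1 head still and link it to the membrane. Of 7, 5 rose, 1 fell and 1 did not pass. Atp5l, subunit g of the membrane part (chromosome 9, 44913248 to 44920742), had RNA signals of 5429, 4593, 4471 and 4428 in wild-type hearts 1 to 4 and 7411, 6967, 8150.4, 8393 and 7066 in knockout hearts 6 to 10. All knockout hearts were higher, and the log2 fold change was 0.68 ± 0.08 (SE; adjusted p = 2.44e-05, limma). Atp5k, subunit e, which pairs with subunit g in joining ATP synthase dimers (chromosome 5, 108433246 to 108434399), had RNA signals of 2997, 2620.4, 2785 and 2469 in wild-type hearts 1 to 4 and 4181, 3955, 5056, 4186 and 3968 in knockout hearts 6 to 10. It too rose without overlap, by 0.65 ± 0.08 (SE; adjusted p = 4.75e-05, limma). Atp5h, subunit d of the peripheral stalk (chromosome 11, 115415691 to 115419919), went the other way. Its RNA signals were 16347, 16861, 16026 and 16701 in wild-type hearts 1 to 4 and 12715, 12864, 14704, 14850.3 and 12960.3 in knockout hearts 6 to 10. The knockout hearts were all lower, and the log2 fold change was -0.28 ± 0.06 (SE; adjusted p = 0.00236, limma). With quantile normalization it was -0.17 (limma adjusted p = 0.0144). Its partners in the stalk split, with Atp5j (coupling factor 6) and Atp5o (the subunit that confers oligomycin sensitivity) higher by 0.51 and 0.44. Atp5f1, subunit b, was at -0.03 (adjusted p = 0.7, limma) and did not pass. Atp5j2, subunit f of the membrane part, rose by 0.51. Atp5j overlaps Gabpa, and the RNA libraries do not mark strand, so its RNA value is uncertain.

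**Figure D2:**
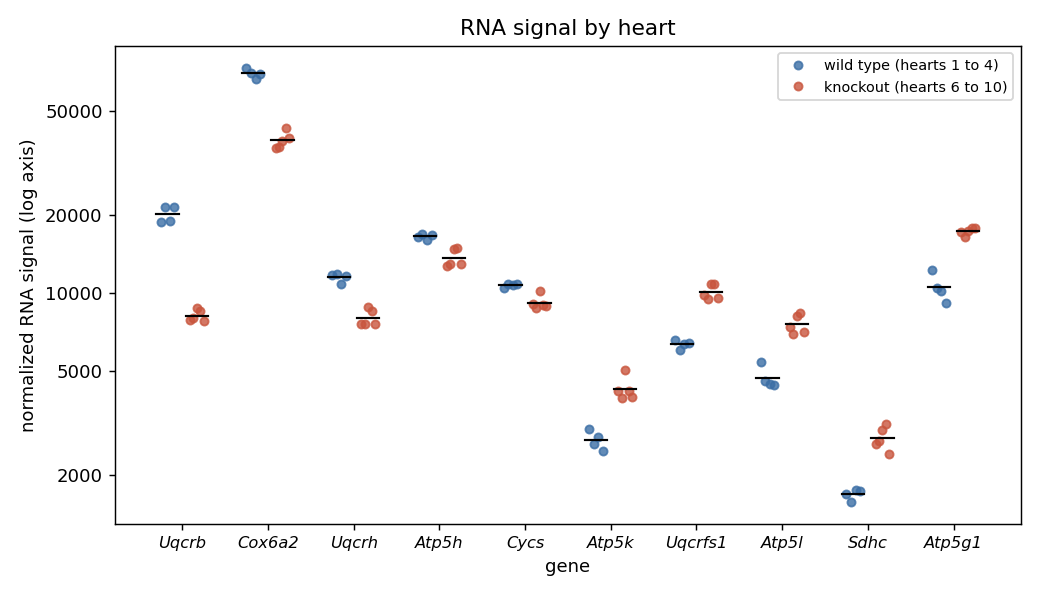
Normalized RNA signal (log axis) in each heart for the 5 called genes with the lowest and the 5 with the highest RNA fold change. Points are hearts and bars are group means (n = 4 wild type, n = 5 knockout). Wild-type and knockout points do not overlap for any of the 10 genes.

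Promoters of nuclear respiratory genes are known for binding sites of NRF1 and of ETS factors such as GABP. The 250 bases before the RefSeq start (GRCm38.p6) were available for 25 of the 33 genes. The NRF1 motif, GCGC followed by any 2 bases and GCGC, read on both strands, was present in 5 of these 25 (20%) and in 6.93% of 17492 protein-coding promoters of the same length. The ETS motif CCGGAAGT, also on both strands, was present in 3 (12%) and in 3.84%. Of 4 further motifs, that of the estrogen-related receptors (TCAAGGTCA) was present in 1 window (4%, Atp5g3), against 0.314% of all promoters, and that of YY1 (AAGATGGC) in none, against 1.51%. GGGCGG, the GC box, was present in 4 (16%), against 42.7%, and TATAAA in 1 (4%, Atp5l), against 12.4%. The NRF1 and ETS matches do not overlap each other in the windows shown. Shown are the 5 promoters that hold either motif in genes whose RNA passed the test, because they include genes that moved in opposite directions. Sequences are from RefSeq, 5′ to 3′ on the gene's strand, with motif matches in capitals.
Sdhd, chr9:50603850-50604099, minus strand: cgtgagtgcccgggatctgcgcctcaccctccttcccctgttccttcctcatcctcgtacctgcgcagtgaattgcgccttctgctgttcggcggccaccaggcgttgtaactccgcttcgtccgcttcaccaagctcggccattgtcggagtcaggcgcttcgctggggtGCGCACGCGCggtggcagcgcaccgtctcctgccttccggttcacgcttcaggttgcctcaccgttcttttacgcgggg
Atp5g2, chr15:102671048-102671297, minus strand: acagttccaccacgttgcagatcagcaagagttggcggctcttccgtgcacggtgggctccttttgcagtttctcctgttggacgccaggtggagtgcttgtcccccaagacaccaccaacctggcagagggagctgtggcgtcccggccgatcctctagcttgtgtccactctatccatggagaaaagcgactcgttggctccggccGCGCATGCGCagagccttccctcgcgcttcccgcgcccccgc
Atp5k, chr5:108434400-108434649, minus strand: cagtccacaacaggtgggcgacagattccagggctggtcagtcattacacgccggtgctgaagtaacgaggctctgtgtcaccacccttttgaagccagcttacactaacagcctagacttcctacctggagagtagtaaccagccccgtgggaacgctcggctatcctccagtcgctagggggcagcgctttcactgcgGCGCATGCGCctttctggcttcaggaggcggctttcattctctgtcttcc
Atp5h, chr11:115419920-115420169, minus strand: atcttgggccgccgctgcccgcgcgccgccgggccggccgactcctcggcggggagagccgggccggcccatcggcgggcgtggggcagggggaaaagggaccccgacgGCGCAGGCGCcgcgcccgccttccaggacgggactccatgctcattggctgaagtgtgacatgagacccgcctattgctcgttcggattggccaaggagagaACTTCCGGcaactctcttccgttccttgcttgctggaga
Uqcrh, chr4:116075071-116075320, minus strand: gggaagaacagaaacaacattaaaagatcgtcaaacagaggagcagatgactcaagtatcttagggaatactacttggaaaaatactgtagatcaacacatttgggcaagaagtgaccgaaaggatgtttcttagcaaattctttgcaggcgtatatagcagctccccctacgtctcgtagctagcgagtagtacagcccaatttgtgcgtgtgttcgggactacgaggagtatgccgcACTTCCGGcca
RNA of Sdhd, Atp5g2 and Atp5k, each with an NRF1 match, rose by 0.54, 0.62 and 0.65. Atp5h, with an NRF1 and an ETS match, and Uqcrh, with an ETS match, fell, at -0.28 and -0.52. The other windows with a match belong to Sdha (NRF1) and Uqcr11 (ETS), whose RNA did not pass. A match describes letters in a window and was not measured as a bound site.

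No gene of the 33 changed detectably in footprints. None passed limma's test in footprints (smallest adjusted p = 0.851), where 0.02% of 9976 genes did. Before adjustment, p was below 0.05 in 4 of the 33 (12.1%) and in 5.06% of all genes. On whole reads recovered from the footprint signals, edgeR and DESeq2 called none either, with 4 and 5 genes at an unadjusted p below 0.05. These counts are given without a share over all genes. The authors' deposited table also lists none of them at an adjusted p below 0.05. The median log2 fold change over the 33 genes was -0.09, against -0.0027 over all genes, with 22 genes below 0 and 11 above. The reads of these genes made up 3.70% to 4.20% of wild-type and 3.68% to 4.06% of knockout footprint libraries, so the groups overlapped. In 1 gene, Cycs, the genotypes did not overlap in footprints (3.03% of the 33), compared with 1.6% of all genes.

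The spread between hearts was wider in footprints than in RNA. The median SE of a log2 fold change was 0.13 in footprints and 0.06 in RNA over the 33 genes. The median coefficient of variation over the 33 genes was 4.05% among wild-type and 6.76% among knockout hearts in RNA, and 14.4% and 11.6% in footprints. Wild-type heart 2, the shallowest library, gave the highest of the 4 wild-type footprint signals for 22 genes. For Uqcrq, its signals were 26875, 48754, 24477 and 26568 in wild-type hearts 1 to 4 and 28873, 30239, 30769, 33511 and 28379.9 in knockout hearts 6 to 10, and heart 2 stood alone. Without heart 2, still none passed, and the median was -0.04. In that fit 6 genes had an unadjusted p below 0.05, a count given without a share over all genes.

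The 4 genes with the smallest footprint p were Atp5j2, Cox7b, Cycs and Uqcr10. Atp5j2 (chromosome 5, 145183704 to 145191541) had footprint signals of 14771, 21733, 16572 and 16845 in wild-type hearts 1 to 4 and 13073, 11292, 14081, 15593 and 13399 in knockout hearts 6 to 10. Knockout hearts lay mostly below wild type with some overlap, and the log2 fold change was -0.37 ± 0.13 (SE; adjusted p = 0.851, limma). Cox7b, a small subunit of complex IV encoded on the X chromosome (chromosome X, 106015700 to 106022450), had footprint signals of 23463, 31297, 15445 and 23502 in wild-type hearts 1 to 4 and 33410.3, 35465, 30682, 30880.1 and 24107 in knockout hearts 6 to 10. Its knockout values were mostly higher, with a log2 fold change of 0.43 ± 0.17 (SE; adjusted p = 0.851, limma). Cycs had footprint signals of 721, 915, 824 and 769 in wild-type hearts 1 to 4 and 713, 567, 584, 412 and 716 in knockout hearts 6 to 10. All knockout hearts lay below wild type, hearts 6 and 10 only narrowly, and the log2 fold change was -0.45 ± 0.18 (SE; adjusted p = 0.851, limma). Uqcr10 (chromosome 11, 4701968 to 4704344) had footprint signals of 9863, 14075, 8993 and 10206 in wild-type hearts 1 to 4 and 8985, 8925, 8044, 7777 and 10011 in knockout hearts 6 to 10. The groups overlapped, and the log2 fold change was -0.29 ± 0.13 (SE; adjusted p = 0.851, limma). None of these 4 passed the adjusted test.

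For the genes with the largest RNA changes, the footprint intervals show how much change the data allow. Uqcrb footprints were 4625, 7434, 3312 and 5504 in wild-type hearts 1 to 4 and 4621, 4091, 4155, 4572 and 5204 in knockout hearts 6 to 10. All knockout hearts lay within the wild-type range, and the log2 fold change of -0.15 had a 95% interval of -0.52 to 0.22, which does not reach the RNA change of -1.29. Cox6a2 footprints were 53147, 93052, 53299.9 and 41682 in wild-type hearts 1 to 4 and 74034, 80538, 71512, 69204 and 48407 in knockout hearts 6 to 10. They overlapped as well, at 0.24 with an interval of -0.18 to 0.65, while RNA was at -0.86. Footprint intervals of Sdhc (-0.14 to 0.36), Uqcrfs1 (-0.28 to 0.16) and Atp5k (-0.42 to 0.12) also stayed below the RNA rises of those genes. The intervals of Uqcrh (-0.31 to 0.14) and Atp5l (-1.53 to 0.48) did not include their RNA changes of -0.52 and 0.68. For Atp5g1 (-0.25 to 0.89) the interval included the RNA rise. Those of Atp5h (-0.34 to 0.11) and Cycs (-0.82 to -0.08) included the RNA falls of -0.28 and -0.23. By complex, the median footprint log2 fold change was 0.03 for complex II, -0.06 for complex III, -0.14 for complex IV, 0.02 for the c subunit and -0.15 for the stalk and membrane subunits. All 7 of the last had a value below 0, from -0.53 to -0.0085, and none passed. Across the 33 genes, 26 had a smaller absolute log2 fold change in footprints than in RNA (78.8%, against 63.4% of all genes tested in both).

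Translational efficiency, each heart's footprint signal divided by its RNA signal, was lower in knockout for many of these genes. The test was limma's, on the interaction between genotype and library kind in a fit of all 18 libraries. Of the 33 genes 13 were lower (39.4%, against 6.55% of 9974 genes tested), 3 were higher (9.09%, against 7.83%) and 17 did not pass. Together these were 16 genes, or 48.5%, where 14.4% of all genes passed. The ratios of the genotypes did not overlap in 19 of the 33 (57.6%), against 18.3% of all genes. The median log2 fold change was -0.40, against -0.02 over all genes. Each of the 13 genes lower in efficiency was higher in RNA, and each of the 3 higher in efficiency was lower in RNA. The RNA values enter both tests, so this is not independent evidence, and a difference between the RNA libraries of the genotypes and a change in translation cannot be told apart here. Without wild-type heart 2, whose ratio was the highest of the wild-type hearts for 23 genes, 12 genes were lower and 3 higher.

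By complex, the median efficiency log2 fold change was -0.47 for complex II, -0.15 for complex III, -0.42 for complex IV, -0.40 for the c subunit and -0.77 for the stalk and membrane subunits. The last of these medians is the value of Atp5j, whose RNA value is uncertain. Complex III held 2 of the 3 higher genes and 3 of the lower ones, complex IV 1 higher and 3 lower, complex II 2 lower, the c subunit 1 lower and the stalk and membrane subunits 4 lower.

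The 3 genes with higher efficiency were those with the largest RNA falls. Uqcrb ratios were 0.247, 0.347, 0.175 and 0.258 in wild-type hearts 1 to 4 and 0.585, 0.512, 0.474, 0.538 and 0.668 in knockout hearts 6 to 10. Every knockout heart was higher, and the log2 fold change was 1.15 ± 0.21 (SE; adjusted p = 0.00119, limma). Cox6a2 ratios were 0.724, 1.33, 0.800 and 0.600 in wild-type hearts 1 to 4 and 2.05, 2.20, 1.87, 1.61 and 1.22 in knockout hearts 6 to 10. Here knockout heart 10 lay below wild-type heart 2, so the groups overlapped, and the log2 fold change was 1.09 ± 0.24 (SE; adjusted p = 0.00469, limma). Uqcrh ratios were 0.962, 1.18, 1.10 and 1.09 in wild-type hearts 1 to 4 and 1.5, 1.52, 1.41, 1.52 and 1.34 in knockout hearts 6 to 10. The groups did not overlap, with a log2 fold change of 0.43 ± 0.12 (SE; adjusted p = 0.0168, limma), which no longer passed without heart 1 (limma adjusted p = 0.0667) or with quantile normalization (limma adjusted p = 0.051).

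Among the genes with lower efficiency, Atp5j2 ratios were 4.72, 7.33, 6.08 and 6.23 in wild-type hearts 1 to 4 and 3.31, 2.94, 3.30, 3.63 and 3.26 in knockout hearts 6 to 10. The knockout hearts were all lower and close to each other, and the log2 fold change was -0.88 ± 0.14 (SE; adjusted p = 0.000437, limma). Uqcr10 ratios were 6.00, 9.73, 5.94 and 6.78 in wild-type hearts 1 to 4 and 4.02, 4.46, 3.53, 3.13 and 4.82 in knockout hearts 6 to 10. All knockout hearts were lower, with wild-type heart 2 far above the rest, and the log2 fold change was -0.82 ± 0.15 (SE; adjusted p = 0.00147, limma). Atp5k ratios were 2.12, 3.22, 2.69 and 2.87 in wild-type hearts 1 to 4 and 1.63, 1.68, 1.43, 1.79 and 1.28 in knockout hearts 6 to 10. They did not overlap either, and the log2 fold change was -0.80 ± 0.16 (SE; adjusted p = 0.00193, limma). The other genes called lower were Sdhc (-0.60) and Sdhd (-0.58) of complex II, and Uqcrfs1 (-0.73) and Cyc1 (-0.40) of complex III. From complex IV they were Cox4i1 (-0.44), Cox5a (-0.66) and Cox6c (-0.76), and from the stalk Atp5j (-0.77) and Atp5o (-0.52). The RNA value of Atp5j, which enters its ratio, is uncertain because of the overlap with Gabpa. Atp5g2 completed the 13. Without heart 1 or 4 Cyc1 no longer passed (limma adjusted p = 0.0568 and 0.0633), nor did Cox4i1 without heart 3 (limma adjusted p = 0.0504). Among the 17 that did not pass, Sdhb, Cox5b and Atp5l stood at -0.37, -0.42 and -1.21 (adjusted p = 0.0589, 0.0722 and 0.103, limma), and each passed under at least 2 other settings. The authors' deposited table places 20 of the 33 genes (60.6%) in a class named buffered, which holds 15.2% of all listed genes, and the other 13 in a class named unchanged. The table does not say how its classes are defined. Of the 33, the genes classed as buffered are those with a deposited adjusted p below 0.05 in efficiency, so the class is not separate evidence. A gene of the class named unchanged can differ in RNA, as Atp5g1 does, with a deposited RNA log2 fold change of 0.70.

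**Figure D3:**
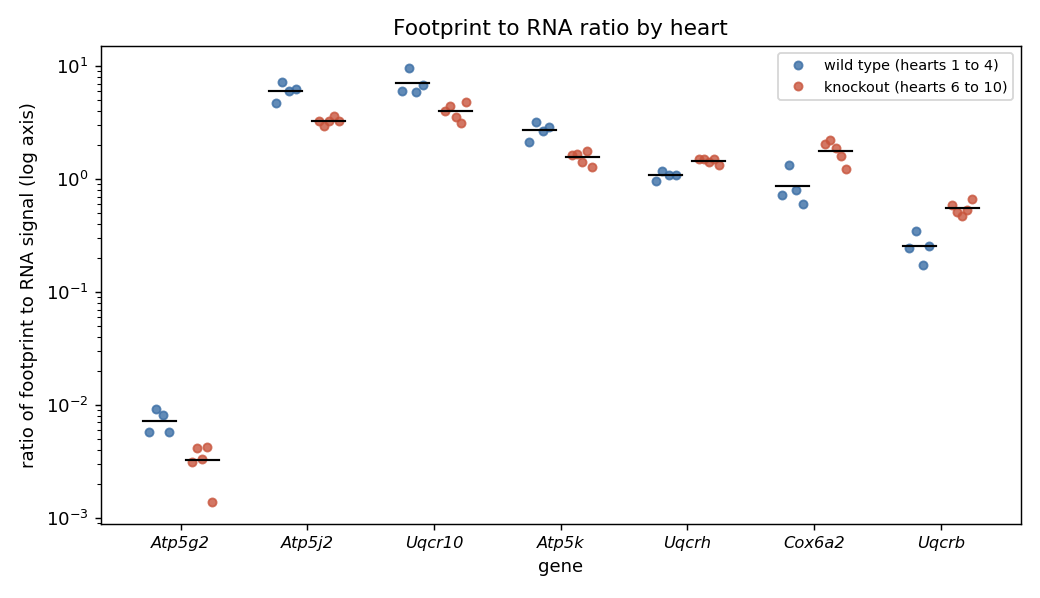
Ratio of footprint to RNA signal (log axis) in each heart for the 4 called genes with the lowest and the 3 with the highest efficiency fold change. Points are hearts and bars are group means (n = 4 wild type, n = 5 knockout). Knockout ratios are below wild type for Atp5g2, Atp5j2, Uqcr10 and Atp5k and above for Uqcrh and Uqcrb, while those of Cox6a2 overlap.

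For a few genes the ratio of footprint to RNA signal was low in wild type. The ratio of mean footprint to mean RNA signal in wild type was below 0.1 for 5 of the 33 genes (15.2%) and for 2.85% of all genes tested, whose median ratio was 1.44. This ratio is not corrected for the length of coding sequence or transcript. Cox7c RNA signals were 7595, 8368, 8414 and 8719 in wild-type hearts 1 to 4 and 7884, 7687, 9025, 8831 and 7533 in knockout hearts 6 to 10, while its footprint signals were 0.00, 0.00, 4.67 and 19.7 in wild-type hearts 1 to 4 and 0.00, 23.1, 44.3, 10.9 and 6.62 in knockout hearts 6 to 10. In whole reads these are 0 to 26 reads in wild type and 0 to 51 in knockout, and a count of 0 allows a signal of up to 1.82, 10.4 and 1.65 in hearts 1, 2 and 6 (3 reads, counting error only). The fitted footprint fold change of 1.60, with an interval of -1.76 to 4.96, therefore shows no direction. Atp5l had 26 to 163 footprint reads in wild type and 42 to 91 in knockout. Cycs was the fifth such gene, after both of the c-subunit genes given next.

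Both Atp5g1 and Atp5g2 were among these genes, and Atp5g3 was not. Atp5g3 footprint signals were 60073, 57358, 53636 and 65899.9 in wild-type hearts 1 to 4 and 54729.8, 53371, 64486, 75331 and 55149.5 in knockout hearts 6 to 10. Those of Atp5g1 were 179, 138, 154 and 129.5 in wild-type hearts 1 to 4 and 258, 125, 225, 142 and 219 in knockout hearts 6 to 10, and those of Atp5g2 14.6, 20.7, 20.2 and 13.6 in wild-type hearts 1 to 4 and 11.0, 14.4, 13, 16.8 and 4.97 in knockout hearts 6 to 10. Each gene's genotypes overlapped in footprints, and none passed the test. The ratios of Atp5g3 were 3.50, 3.35, 3.12 and 4.01 in wild-type hearts 1 to 4 and 3.43, 3.42, 3.61, 4.11 and 3.24 in knockout hearts 6 to 10, with a log2 fold change of 0.03 (adjusted p = 0.919, limma). Those of Atp5g1 were 0.0147, 0.0133, 0.0151 and 0.0141 in wild-type hearts 1 to 4 and 0.0150, 0.00762, 0.0130, 0.00799 and 0.0123 in knockout hearts 6 to 10, also overlapping, at -0.40 (adjusted p = 0.278, limma). Atp5g2 ratios were 0.00573, 0.00923, 0.00815 and 0.00577 in wild-type hearts 1 to 4 and 0.00309, 0.00412, 0.00335, 0.00424 and 0.00139 in knockout hearts 6 to 10. All knockout ratios were lower, and the log2 fold change was -1.17 ± 0.32 (SE; adjusted p = 0.0198, limma), from 6 to 24 footprint reads per library. With the heart as a replicate block Atp5g2 no longer passed (limma adjusted p = 0.262), nor without heart 2 or 3 (0.0681 and 0.0642) or with quantile normalization (0.133).

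**Figure D4:**
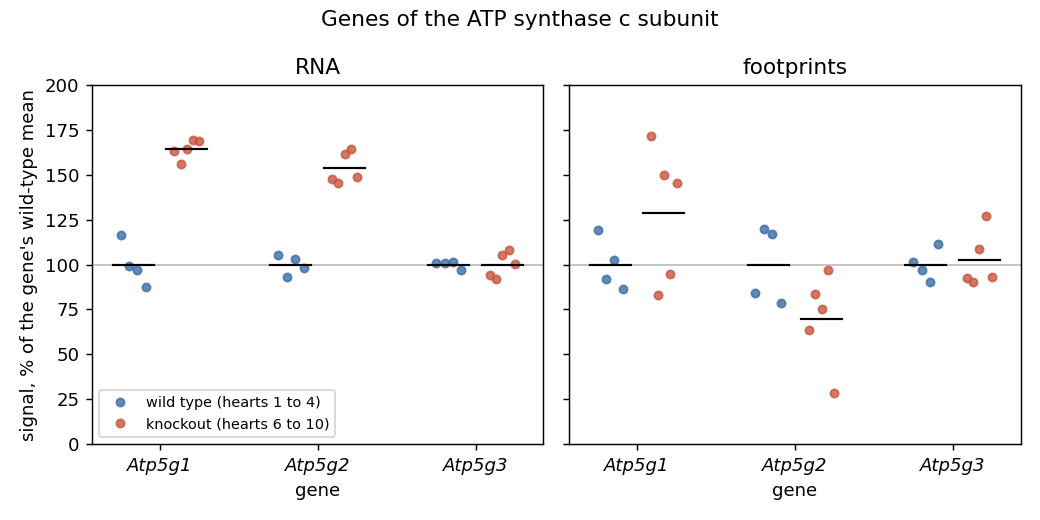
RNA (left) and footprint (right) signal of the 3 c-subunit genes in each heart, as a percentage of the same gene's wild-type mean. Points are hearts and bars are group means (n = 4 wild type, n = 5 knockout). Knockout RNA lies at 156% to 169% for Atp5g1, 145% to 164% for Atp5g2 and 91.8% to 108% for Atp5g3, while knockout and wild-type footprints overlap for each gene.

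Near-identical copies can make such values uncertain, since short footprints that match several places can be counted to none or split. Copies were looked for only as pseudogenes named after the gene, so copies under other names, and related genes, were not counted. Named pseudogenes exist in the gene tables for 6 of the 33 genes: 4 for Atp5k, 3 each for Cycs and Atp5l, 2 for Uqcrh, and 1 each for Cox5b and Cox7c. Of the 5 genes with a ratio below 0.1, Cycs, Cox7c and Atp5l have such copies, while none is named for Atp5g1 or Atp5g2. Atp5k, with the largest number of copies so named, had a wild-type ratio of 2.73 ± 0.457 (SD, n = 4). Those of Uqcrh and Cox5b were 1.08 ± 0.0895 and 0.288 ± 0.0639 (SD, n = 4). Of the 6 genes, Atp5k alone lay above 1.44, the median ratio of all genes tested. The part of shared reads in these ratios was not tested. None of the named copies is among the listed genes.

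Other genes of the pathway are given beside the shares over all genes tested, which were 24.3% higher and 25.1% lower in RNA and 7.83% higher and 6.55% lower in efficiency. Of 36 complex I subunits, 22 rose and 9 fell in RNA, with log2 fold changes from -1.39 (Ndufs5) to 1.15 (Ndufa2) among those called. In efficiency, 5 of them were higher and 15 lower, with a median log2 fold change of -0.28. Of 7 further complex IV and supercomplex genes, 3 rose and 2 fell in RNA, with Cox8a, the general isoform beside Cox8b, at 0.65 and Cox7a1 at -1.61. Their efficiency was higher in 2 and lower in 2. The other 7 ATP synthase genes gave 2 rises and 3 falls in RNA, with Atp5e at 1.54 and Usmg5 at -0.39. In efficiency 1 of them was lower and none higher, and the median log2 fold change was 0.01.

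Among 35 assembly factors of complexes II to IV and ATP synthase, 14 rose and 9 fell in RNA, with Uqcc2, a complex III factor, at 0.96 and Cox20, which helps to mature a core subunit of complex IV, at -1.04. Efficiency was tested in 34 of them, and 2 were higher and 7 lower. Of 15 transcriptional regulators 4 rose and 5 fell in RNA, with Ppara, a nuclear receptor for fatty acids, at 0.58 and Gabpa, the DNA-binding part of GABP, at -0.79. Their efficiency was higher in 3 and lower in 2. Gabpa overlaps Atp5j, so its unstranded RNA value is uncertain. In RNA, the falls among complex I subunits and assembly factors and the rises among regulators lie close to the shares over all genes. So does the share of assembly factors with higher efficiency. None of the genes on these lists passed the test in footprints, with limma at an adjusted p below 0.05. No test of these lists was made.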

How the data were processed

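RNA and ribosome footprints of 9 hearts were each given as normalized signal per gene: the deposited signal is reads divided by a size factor for each library, as its values show. Reads were aligned with STAR 2.7.1a to GRCm38 (mm10), counted with HTSeq and processed with DESeq2, per the submitters' processing notes. The authors also deposited, per gene, a ratio of footprint to RNA signal for each heart, log2 fold changes, p-values and adjusted p-values, and a class. How the genes were filtered is not stated. The deposited efficiency fold changes run opposite to the deposited ratios of the hearts (knockout over wild type) for 94.8% of 10239 genes and 32 of the 33 genes described. Their sign was therefore turned for the comparison with the fits made here; those of RNA and footprints were used as deposited.

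Each signal was tested with limma 3.58.1 (R 4.3.3, mean-variance trend) on log2(signal + 1), for genes with a mean of at least 10, and p was adjusted over all genes tested. A fold change on this scale understates that of low genes. Efficiency was the interaction between genotype and library kind, without a term for the heart, for genes with a mean of at least 10 in both. Footprint signals gave whole reads for 100% of values (within 0.01 reads), on which edgeR 4.0.16 and DESeq2 1.42.0 were run as alternatives. RNA read totals were obtained the same way, from the smallest step of each library, but count tests were run on footprints alone. The procedures were tested on simulated data with the same spread set for RNA and footprints and no effect of the heart. The data here differ in both, so the simulation does not cover these features.

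The hearts pair the libraries: over 8066 genes, deviations from the group mean correlated at 0.208 to 0.502 between the RNA and footprints of a heart. Between different hearts of the same genotype the median was -0.136, a value that subtracting the group mean itself pulls below 0.

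Values in every heart are given for the 5 called genes with the highest and the 5 with the lowest RNA fold change, for the 4 in each direction of efficiency (only 3 were higher), for the 4 with the smallest footprint p and for the c-subunit genes. Uqcrq, Cox7c and the genes of low ratio were added after their values were seen. The 33 genes and all lists were chosen with earlier results of these data known. Of each pathway list the called genes with the highest and lowest RNA fold change are named. Alternatives were pseudocounts of 0.5 and 5, no minimum or one of 100, TMM factors, quantile normalization, each heart left out, a replicate block and the authors' deposited table. Positions and promoters are from RefSeq, GRCm38.p6. No transcript lengths were used, so levels were not compared between genes, ratios set beside those of other genes are not corrected for length, and no relation to length was computed.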

Additional observations from a re-analysis of the deposited data

Results flagged for a closer look

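A heart stood apart from the others of its genotype, by Dixon's criterion for a single outlying value at the 95% level, in 12 of 198 groups of hearts (6.06%), where chance alone flags about 1 in 20. Wild-type heart 2 accounted for 3 of them: its Uqcrq footprint signal of 48754 and Uqcrq ratio of 10.5 were the highest of the 4 wild-type hearts, as was its Cox6c ratio of 2.74. Among wild-type RNA signals, those of Sdhb in heart 4 (12111), Uqcrh in heart 3 (10796) and Atp5g3 in heart 4 (16448) were set apart as the lowest, and that of Atp5l in heart 1 (5429) as the highest. The Cox5a footprint signal of wild-type heart 3 (23120.4) was the lowest of its group. In knockout, RNA signals of Cycs (10157) and Atp5k (5056) were set apart as the highest in heart 8. The Cox5b footprint signal (4127) and ratio (0.274) were the highest in knockout heart 6.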

How the results depend on the processing

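Under every alternative that gave a value, and with the sign of the authors' deposited efficiency fold changes turned, no called change among the 33 genes took the opposite direction, and the counts stayed within 1.5 times: 21 to 22 genes higher and 5 to 6 lower in RNA, 2 to 3 higher and 12 to 17 lower in efficiency, and 0 in footprints. Median log2 fold changes ranged from 0.25 to 0.36 in RNA, -0.49 to -0.34 in efficiency and -0.12 to -0.04 in footprints. Over genes and settings together, a call was lost in 5 cases in RNA and 9 in efficiency and gained in 12 cases in efficiency, and the cause was not tested. With the replicate block, which pairs the libraries of a heart, 3 genes were higher and 12 lower in efficiency, and no call other than that of Atp5g2 changed. With quantile normalization 2 were higher and 15 lower, and by the authors' deposited table, with its sign turned, 3 were higher and 17 lower (as deposited, 17 called values are positive and 3 negative). The spread of footprint libraries, with a median SE of 0.13 on the log2 scale, limits which changes could be called. Footprint changes of -0.37 (Atp5j2), 0.43 (Cox7b) and -0.45 (Cycs) did not pass, so changes well above 1 SE can go uncalled. Footprints of Cox7c and Atp5g2 rest on at most 51 and 24 reads per library.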
